A study of Mus musculus with 3 samples.

Results

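Nephrons arise from a self-renewing progenitor pool in the cap mesenchyme, a condensate of cells around each ureteric bud tip. Progenitors either stay in the pool or respond to Wnt signals from the bud, switch on *Wnt4* and *Lhx1*, and form an epithelial vesicle. A small group of transcriptional regulators keeps cells in the pool, and loss of a core regulator such as *Six2* empties it early in development. The genes described here are 8 such regulators or markers of the pool, chosen by name: *Six2*, *Cited1*, *Eya1*, *Sall1*, *Osr1*, *Meox1*, *Crym* and *Uncx*. Each had 1 row among the 32285 genes of the matrices, so 8 of 8 members were measured. All 8 passed the filter of 10 CPM (UMIs of a gene per 1e6 UMIs of the cells summed) in nephron progenitors. The members were chosen with earlier results of these data known, so counts of members past a threshold are a description only. The question was how the 3 groups of embryonic mouse kidneys differed in the level of these genes, and in how often they were seen together in a cell.

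Droplet single-cell RNA sequencing, which counts unique molecular identifiers (UMIs) near the 3′ ends of transcripts, had been performed on whole mouse kidneys at E15.5. The *Enl*-WT embryos were *Enl*+/+ *Wt1* GFPCre/+, and the *Enl*-T1 embryos were *Enl* flox-T1/+ *Wt1* GFPCre/+, which express from 1 allele a Wilms tumor-associated insertion mutant of the chromatin reader ENL (encoded by *Mllt1*). The third group, labelled *Enl*-T1 with TDI-11055, had the *Enl*-T1 genotype, and the mothers had received 100 mg/kg of TDI-11055, an inhibitor of the acyl-binding YEATS domain of ENL, orally each day from E10.5 to E14.5. It is called treated *Enl*-T1 below. All 3 groups therefore carried the *Wt1* GFPCre knock-in, which replaces 1 copy of *Wt1* and recombines in *Wt1*-expressing nephron and stromal cells and their progeny. Each group was 1 library of pooled embryos of either sex, with no map from cells to embryos, so no test between groups was possible. The other libraries are labelled as untreated, and a treated *Enl*-WT group was not analysed here. All intervals below are 95% intervals that cover counting error only, not differences between embryos or preparations.

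Of 20214 deposited barcodes, 12131 were kept after limits of 1000 to 6000 genes and 10% mitochondrial UMIs (5233 *Enl*-WT, 4144 *Enl*-T1, 2754 treated). Median depth per kept cell differed between the libraries and was 5090, 9391 and 16931 UMIs. Values for the 3 libraries are given in this order throughout: *Enl*-WT, *Enl*-T1, treated *Enl*-T1. The libraries shared between 5 and 8 kept barcodes a pair. Cells were grouped into classes by clustering that left out the 8 members, their paralogs and the *Hox* genes, and classes were named, with the suffix "-like", from markers that did not include the members. Because the files held no cell annotation, a difference from the study's cell types can come from these rebuilt names alone. NP1-like cells numbered 1749 in all and 678, 539 and 532 in the 3 libraries. They are the class named from markers of uncommitted progenitors such as *Rspo1*, *Rspo3*, *Gdnf* and *Spock2*. NP1-like cells comprised a cluster led by *Rspo3*, one led by the S-phase gene *Rrm2* and one led by the mitosis gene *Ube2c*. Only the *Rspo3* cluster had NP1 markers, 2 of them, among its 10 leading genes. The *Rrm2* and *Ube2c* clusters had no listed marker there. They took the name of the type whose markers had the highest mean log2 ratio over the other nephron cells, so their naming is weaker. The *Rspo3* cluster held 52.2%, 34.3% and 37.4% of the NP1-like cells in the 3 libraries, and the *Rrm2* cluster was the largest in *Enl*-T1 (40.3%). A neighbouring nephron cluster led by *Hist1h2bc*, *C1qtnf12* and *Snap91* stayed unnamed because the stromal marker *Prrx1* was among its leading genes, and is called the *Snap91* cluster. The sums of the 8 NP1 markers in NP1-like cells were 655, 232 and 375 CPM in the 3 libraries, so the markers that named the class moved between the libraries as well.

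The members lie on 8 different chromosomes of mouse build GRCm38 (mm10) and are all annotated as protein-coding in GENCODE M21. *Six2* (ENSMUSG00000024134), the homeobox factor that holds progenitors in the pool, is at chr17:85684277-85688274 on the minus strand. *Cited1* (ENSMUSG00000051159), a transcriptional co-regulator that marks uncommitted cap mesenchyme, is at chrX:102247381-102252181, minus strand. *Eya1* (ENSMUSG00000025932), a phosphatase and co-activator that partners *Six2* and its relatives, is at chr1:14168954-14310235, minus strand, and the small annotated genes *Gm37444* (same strand) and *Gm22616* (opposite strand) overlap it. *Sall1* (ENSMUSG00000031665), a zinc-finger factor, is at chr8:89027235-89044162, minus strand. *Osr1* (ENSMUSG00000048387), a zinc-finger factor of the intermediate mesoderm, is at chr12:9570116-9581500, plus strand, overlapped by *1700022H16Rik* on the opposite strand. *Meox1* (ENSMUSG00000001493), a mesenchyme homeobox factor, is at chr11:101877510-101894374, minus strand, overlapped by *Gm11551* on the opposite strand. *Crym* (ENSMUSG00000030905), which encodes the thyroid hormone-binding protein μ-crystallin, is at chr7:120186380-120202111, minus strand. *Uncx* (ENSMUSG00000029546), a homeobox factor, is at chr5:139543494-139548179, plus strand.

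The RefSeq promoter table of build GRCm38.p6 (250 bases before to 50 after each annotated start) held an entry for 4 of the 8 members: *Six2*, *Cited1*, *Sall1* and *Uncx*. *Cited1* and *Sall1* have 3 windows each, and for *Cited1* the most upstream one is printed. *Six2* and *Cited1* are shown because the results on cells that hold both genes turn on them, and *Uncx* because its level stayed high in later nephron cells. The *Six2* window is chr17:85688205-85688504, the *Cited1* window chrX:102252132-102252431 and the *Uncx* window chr5:139543648-139543947; each is printed 5′ to 3′ on the gene's strand, and capitals mark the letters matched by any of 6 motifs searched on both strands.
Six2: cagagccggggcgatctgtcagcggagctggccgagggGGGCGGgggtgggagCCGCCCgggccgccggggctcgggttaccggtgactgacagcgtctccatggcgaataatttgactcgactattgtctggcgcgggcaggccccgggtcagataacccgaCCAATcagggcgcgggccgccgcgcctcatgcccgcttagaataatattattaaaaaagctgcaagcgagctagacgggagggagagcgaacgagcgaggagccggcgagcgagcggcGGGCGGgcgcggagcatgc
Cited1: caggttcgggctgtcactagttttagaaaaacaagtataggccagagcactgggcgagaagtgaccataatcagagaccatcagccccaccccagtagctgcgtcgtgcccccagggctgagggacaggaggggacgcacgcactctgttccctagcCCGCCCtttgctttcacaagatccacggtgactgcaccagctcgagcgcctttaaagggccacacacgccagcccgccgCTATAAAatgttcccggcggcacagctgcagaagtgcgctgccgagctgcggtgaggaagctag
Uncx: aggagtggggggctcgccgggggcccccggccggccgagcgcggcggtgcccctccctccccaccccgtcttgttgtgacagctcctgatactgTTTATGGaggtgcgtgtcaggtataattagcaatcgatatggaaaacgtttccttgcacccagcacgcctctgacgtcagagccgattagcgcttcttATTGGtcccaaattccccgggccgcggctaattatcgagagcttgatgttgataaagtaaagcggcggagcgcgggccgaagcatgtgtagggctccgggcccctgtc
The motifs were a MEF3-type site, bound by the *Six2* family (TCANGTTNC, in 3.23% of 32851 promoters), a TCF/LEF site (CTTTGAT, 3.73%), a posterior HOX site (TTTATNG, 10.9%), a TATA box (TATAAA, 13.6%), a GC box (GGGCGG, 35.7%) and a CCAAT box (37.4%). The *Six2* window held 3 GC boxes, at positions -212, -197 (reverse strand) and 31 relative to the start, and a CCAAT box at -87. The *Cited1* window held a GC box on the reverse strand at -93 and, at -14, letters read both as a posterior HOX site on the reverse strand and, overlapping it from -13, as a TATA box. Of the other *Cited1* windows, the one at chrX:102251794-102252093 held a TATA box at -115 and a CCAAT box on the reverse strand at -100, and the one at chrX:102250727-102251026 held no match. The *Uncx* window held a posterior HOX match at -156 and a CCAAT box on the reverse strand at -58. No MEF3-type or TCF/LEF match lay in these 3 windows. All 3 were richer in CG dinucleotides than the median promoter (37, 18 and 26 against 7), and these matches are letters in a window, not measured binding.

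Within the nephron the members separated into those mostly confined to progenitors and those that continued into later cells. NP1-like cells had the highest level among the 7 classes with at least 50 cells in each library in 20 of the 24 combinations of member and library. The exceptions were *Sall1* in all 3 libraries and *Uncx* in *Enl*-T1. Stromal classes outside these 7 could be higher. In *Enl*-T1, *Crym* was 99.4 CPM in medullary stroma-like and 50.6 CPM in NP1-like cells. *Osr1* in *Enl*-T1 was 58.1 CPM in ureteric stroma-like and 36.4 CPM in NP1-like cells. Levels below are CPM of the summed UMIs of a class and are compared between cells and libraries, not between genes, since 3′ counts differ in capture from gene to gene.

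**Figure D1:**
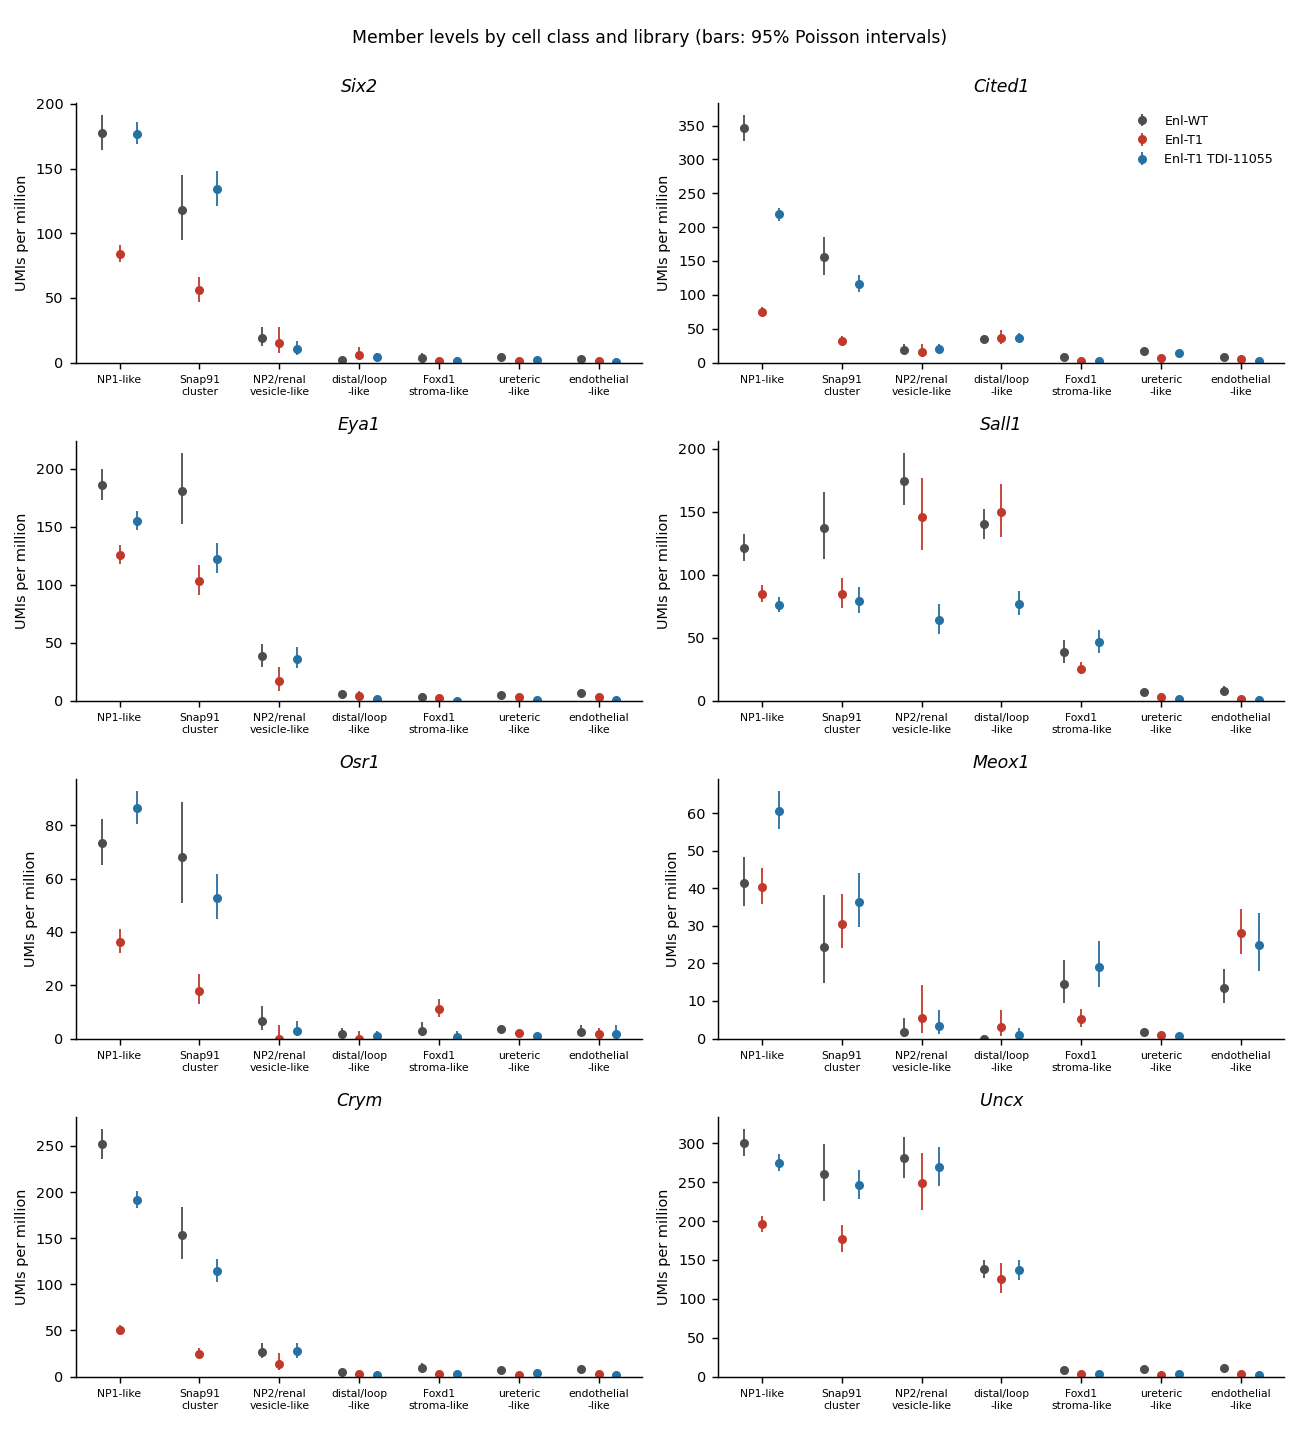
Levels of the 8 members (y axis, CPM, each panel with its own scale from 0) in the 7 classes with at least 50 cells in each library (x axis), for *Enl*-WT (grey), *Enl*-T1 (red) and treated *Enl*-T1 (blue); bars are 95% Poisson intervals. *Six2*, *Cited1*, *Eya1*, *Osr1* and *Crym* stand higher in NP1-like cells than in the 5 other plotted classes, the *Snap91* cluster aside, in each library, whereas *Sall1* and *Uncx* stay high in NP2/renal vesicle-like and distal cells.

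*Six2* measured 177 CPM (164 to 191) in *Enl*-WT NP1-like cells, 84.2 CPM (77.6 to 91.2) in *Enl*-T1 and 177 CPM (169 to 186) in treated *Enl*-T1. The *Enl*-T1 library was the low one, and the intervals of the other 2 libraries overlapped almost wholly. In the *Snap91* cluster *Six2* measured 118, 56.1 and 134 CPM in the same order. In NP2/renal vesicle-like cells, whose leading genes *Lhx1*, *Wnt4*, *Osr2* and *Npy* mark commitment and the first vesicle, it was 19.1, 15.3 and 10.4 CPM, with overlapping intervals. Outside the nephron it was low, with 4.54, 0.883 and 1.60 CPM in ureteric epithelium-like cells and 2.42, 1.25 and 0.568 CPM in endothelial-like cells. These low levels, in classes that should lack *Six2*, were highest in *Enl*-WT, and the part of free RNA in them was not tested.

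*Cited1*, relative to *Enl*-WT, was lower than *Six2* in *Enl*-T1 progenitors. It measured 346 CPM (328 to 365) in *Enl*-WT NP1-like cells, 75.3 CPM (69.1 to 82.0) in *Enl*-T1 and 219 CPM (210 to 229) in treated *Enl*-T1, and none of the 3 intervals overlapped. The *Snap91* cluster showed the same order with 155, 31.8 and 116 CPM, and in *Enl*-T1 its interval (25.1 to 39.9) overlapped that of distal tubule/loop of Henle-like cells (26.8 to 48.0). Levels in NP2/renal vesicle-like cells were 19.1, 15.3 and 19.6 CPM, and the 3 intervals overlapped. Distal tubule/loop of Henle-like cells carried a lower level of *Cited1* whose intervals overlapped in the 3 libraries, at 34.2, 36.3 and 36.9 CPM. It was 16.8, 6.84 and 13.8 CPM in ureteric epithelium-like cells.

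*Crym* followed *Cited1* closely. It measured 252 CPM in *Enl*-WT NP1-like cells, 50.6 CPM in *Enl*-T1 and 192 CPM in treated *Enl*-T1, with 154, 24.3 and 115 CPM in the *Snap91* cluster. *Crym* was also present in stroma. In medullary stroma-like cells, the interstitium around the loops of Henle and collecting ducts, it measured 22.7 CPM (11.3 to 40.6) in *Enl*-WT and 99.4 CPM (86.9 to 113) in *Enl*-T1. The treated library held 28 medullary stroma-like cells, too few for the comparison of classes. In ureteric stroma-like cells *Crym* was 56.1 CPM (29.0 to 98.1) over 50 *Enl*-WT cells and 1.12 CPM (0.135 to 4.04) over 244 *Enl*-T1 cells, so these classes moved in opposite directions.

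*Osr1* had levels in progenitors and in stroma. NP1-like cells carried 73.3, 36.4 and 86.5 CPM in the 3 libraries, with *Enl*-T1 the low library. Ureteric stroma-like cells, the smooth muscle precursors around the ureter, carried 23.4 CPM in *Enl*-WT and 58.1 CPM in *Enl*-T1. Foxd1 stroma-like cells, the cortical stromal progenitors, carried 2.66, 11 and 0.477 CPM, from 5, 45 and 1 UMIs. *Osr1* had 0 UMIs in the 50 *Enl*-T1 NP2/renal vesicle-like cells, which allows up to 5.13 CPM by the exact interval, against 6.76 and 2.88 CPM in the other libraries.

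*Eya1*, the co-activator, measured 186, 126 and 155 CPM in NP1-like cells and 181, 104 and 122 CPM in the *Snap91* cluster. In CPM *Enl*-T1 was lowest and *Enl*-WT highest in both, and in NP1-like cells the 3 intervals did not overlap. In cells thinned to equal depth the treated library was the lowest instead. *Eya1* was then seen in 35.3%, 24.9% and 20.5% of NP1-like cells and 26.1%, 19.4% and 14.7% of the *Snap91* cluster. The *Enl*-T1 and treated intervals of these shares overlapped in both. Unlike *Cited1* and *Crym*, *Eya1* was nearly as high in the *Snap91* cluster as in NP1-like cells in *Enl*-WT (180.9 CPM, 152 to 213, against 186 CPM, 173 to 200). It was 38.1, 16.7 and 36.2 CPM in NP2/renal vesicle-like cells. In podocyte-like cells, the filtering cells of the glomerulus, it was 24.3 CPM in *Enl*-WT and 41.7 CPM in the 45 *Enl*-T1 cells.

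*Sall1* and *Uncx* were the members that stayed on in the differentiating nephron. *Sall1* measured 121, 84.6 and 76.2 CPM in NP1-like cells, and 175, 146 and 63.8 CPM in NP2/renal vesicle-like cells. The treated library was the low one for *Sall1* in NP2/renal vesicle-like cells (0.438 of the *Enl*-T1 level, 0.332 to 0.577) and in distal tubule/loop of Henle-like cells (76.9 CPM against 149.6, a ratio of 0.514, 0.426 to 0.622). Foxd1 stroma-like cells also carried *Sall1*, at 38.3, 25.4 and 46.3 CPM. *Uncx* measured 300.0, 196 and 275 CPM in NP1-like cells and 281, 249 and 269 CPM in NP2/renal vesicle-like cells, where the 3 intervals overlapped. In distal tubule/loop of Henle-like cells it was 138, 125 and 137 CPM, higher in the *Sim1* cluster of early distal cells (199, 191 and 213 CPM) than in the *Slc12a1* cluster of loop of Henle cells (55.5, 22.7 and 35.6 CPM).

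*Meox1* was close in both untreated libraries, at 41.4 CPM (35.3 to 48.3) in *Enl*-WT, 40.3 CPM (35.8 to 45.3) in *Enl*-T1 and 60.6 CPM (55.7 to 65.8) in treated *Enl*-T1. The *Enl*-WT and *Enl*-T1 intervals overlapped and the treated library was above both. It was also present in endothelial-like cells, with 13.5 CPM in *Enl*-WT, 28.1 CPM in *Enl*-T1 and 25.0 CPM in treated *Enl*-T1. In Foxd1 stroma-like cells it was 14.4, 5.13 and 19.1 CPM, low in *Enl*-T1.

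The unnamed cluster led by *Sst*, *Akap12* and *Meg3*, made up of 40, 207 and 13 cells in the 3 libraries, carried little *Six2*, *Cited1* and *Crym*. In its *Enl*-T1 cells *Six2* was 12.1 CPM, *Cited1* 6.32 CPM and *Crym* 1.15 CPM, whereas *Eya1* was 56.3 CPM and *Sall1* 62.7 CPM.

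The first comparison asked how mutant ENL went with the level of the pool genes in progenitors. In NP1-like cells the CPM of each of the 8 members was below its *Enl*-WT level in *Enl*-T1, with *Meox1* turning sign under the scaling given below, and 5 of 8 were lower by 1.5 times or more (*Six2*, *Cited1*, *Osr1*, *Crym* and *Uncx*), beside 31.8% of the 8270 genes at that level. None was higher by 1.5 times, beside 5.55% of all genes. Ribosomal protein transcripts took 19.5%, 31.0% and 30.4% of the UMIs of NP1-like cells in the 3 libraries, and with mitochondrial, ribosomal and haemoglobin genes left out of the total the median member was at -0.58. The median gene lay at -0.33 on the log2 scale, and the median member at -0.81. After median-of-ratios scaling, which sets the median gene close to 0, 4 members were lower by 1.5 times (*Six2*, *Cited1*, *Osr1* and *Crym*), beside 13.5% of all genes, none was higher, beside 12.8%, and the median member was at -0.48.

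**Figure D2:**
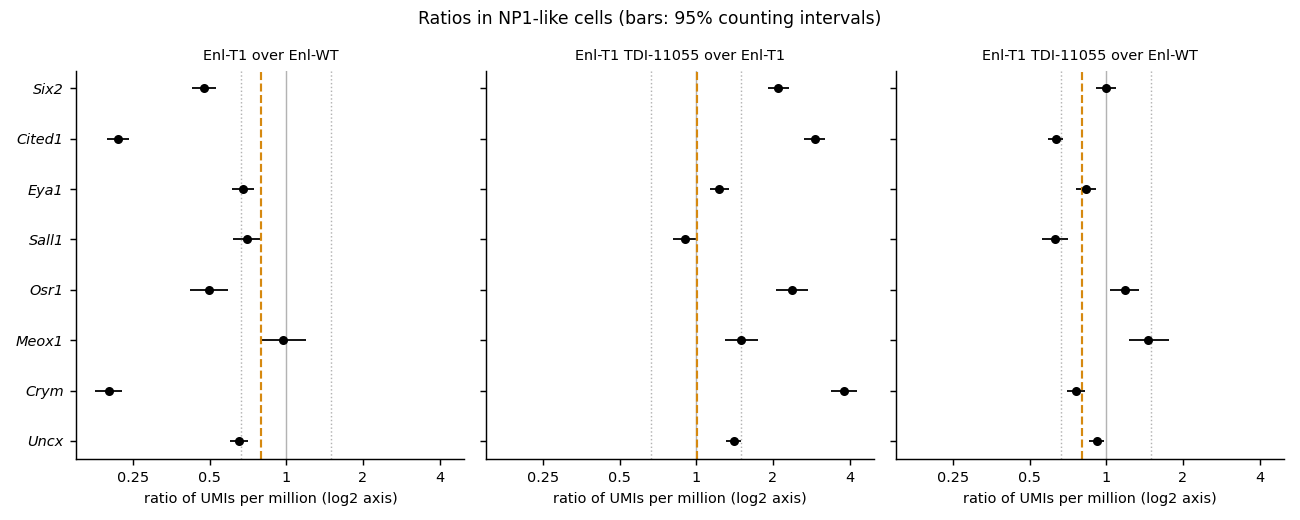
Ratio of CPM in NP1-like cells (x axis, log2 scale) for the 8 members (y axis) in the 3 comparisons; bars are 95% counting intervals, dotted lines mark 1.5 times either way, and the dashed orange line marks the median of all genes. *Cited1* and *Crym* lie farthest to the left in *Enl*-T1 over *Enl*-WT, at 0.218 and 0.201, and farthest to the right in treated over untreated *Enl*-T1, at 2.91 and 3.79.

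The members fell into tiers of size. *Crym* and *Cited1* had the lowest ratios of *Enl*-T1 over *Enl*-WT, at 0.201 (0.178 to 0.227) and 0.218 (0.197 to 0.241), which overlapped each other. *Six2* (0.475, 0.425 to 0.530) and *Osr1* (0.496, 0.418 to 0.589) came next and also overlapped. The place of *Osr1* holds for the pooled class only. In the *Rspo3* cluster its ratio was 0.754 (0.593 to 0.959), against 0.529 for *Six2*. *Uncx* (0.653, 0.604 to 0.707), *Eya1* (0.676, 0.612 to 0.746) and *Sall1* (0.698, 0.618 to 0.789) had overlapping intervals, and after median-of-ratios scaling lay at -0.29, -0.24 and -0.19 on the log2 scale. *Meox1* was at 0.974 (0.801 to 1.19). Its log2 ratio was -0.04 in CPM and 0.29 after median-of-ratios scaling, so no direction can be given for it.

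The second comparison asked how treatment of the mothers with TDI-11055 went with the same genes, and it shares the *Enl*-T1 library with the first, so that a low value there raises this ratio and lowers the other. In NP1-like cells 5 of 8 members were higher by 1.5 times or more in treated *Enl*-T1 than in *Enl*-T1, beside 5.58% of 7903 genes, and none was lower, beside 7.05%. The median gene lay at 0.01 on the log2 scale and the median member at 0.83. *Crym* had a ratio of 3.79 (3.38 to 4.26), *Cited1* of 2.91 (2.64 to 3.20), *Osr1* of 2.38 (2.06 to 2.74) and *Six2* of 2.10 (1.91 to 2.31). *Meox1* stood at the threshold with 1.5 (1.30 to 1.74) and passed it in CPM only, which left 4 members past it after median-of-ratios scaling, beside 5.26% of all genes, with none lower, beside 7.34%. Within single clusters *Meox1* stayed under the threshold, at 1.37 in the *Rspo3*, 1.25 in the *Rrm2*, 1.16 in the *Ube2c* and 1.19 in the *Snap91* cluster. *Uncx* (1.40) and *Eya1* (1.23) had CPM ratios with intervals above 1. *Eya1* did not show this in every measure: its ratio was 0.912 (0.756 to 1.10) in the *Ube2c* cluster, and in cells thinned to equal depth it was seen in 24.9% (21.3 to 28.8) of *Enl*-T1 and 20.5% (17.2 to 24.2) of treated NP1-like cells, so no direction is given for it. For *Uncx* the thinned shares overlapped, at 32.2% (28.2 to 36.3) in *Enl*-T1 and 33.7% (29.7 to 37.9) in treated NP1-like cells. The *Uncx* ratio in the *Ube2c* cluster was 1.16 (1.02 to 1.32). *Sall1* (0.901, 0.807 to 1.01) was the member whose ratio was under 1.

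The third comparison set the treated mutant against *Enl*-WT. *Six2* had a ratio of 0.998 (0.913 to 1.09), the closest to 1 in CPM. *Cited1* (0.633, 0.591 to 0.679) and *Sall1* (0.629, 0.559 to 0.709) were the 2 members lower by 1.5 times or more, beside 36.4% of all genes, and none was higher, beside 5.79%. *Crym* was at 0.762, *Eya1* at 0.834 and *Uncx* at 0.917, beside a median gene at -0.32 and a median member at -0.19 on the log2 scale. *Osr1* (1.18) and *Meox1* (1.46, 1.23 to 1.76) were above 1. After median-of-ratios scaling both lower calls were lost (*Cited1* at -0.34 and *Sall1* at -0.35 on the log2 scale), leaving 0 members lower, beside 21.3% of all genes, and *Meox1* was called higher at 0.87, beside 18.2%. The median member was then at 0.13, and the signs of *Six2*, *Eya1* and *Uncx* turned. Under this scaling *Six2* was at 0.32, and *Eya1* (0.06) and *Crym* (-0.07) lay closest to the *Enl*-WT level. In cells thinned to equal depth *Eya1* was seen in 20.5% (17.2 to 24.2) of treated and 35.3% (31.7 to 39.1) of *Enl*-WT NP1-like cells.

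The mix of clusters within the NP1-like class differed between the libraries, so the ratios were also taken within each cluster. In the *Rspo3* cluster *Cited1* measured 525, 143 and 300 CPM in the 3 libraries and *Crym* 378, 101 and 242 CPM, the highest levels of both genes among the clusters. In the *Rrm2* cluster of S-phase cells *Cited1* was 224, 42.6 and 154 CPM, and in the *Ube2c* cluster of mitotic cells 234, 61.0 and 165 CPM. The *Enl*-T1 over *Enl*-WT ratio of *Cited1* was 0.272, 0.190 and 0.261 in these clusters and 0.205 in the *Snap91* cluster, so the lower level was present in each. *Six2* was 0.529, 0.479, 0.496 and 0.476 in the same order. *Osr1* varied most between the clusters, with 0.754 (0.593 to 0.959) in the *Rspo3* cluster, 0.297 (0.200 to 0.439) in the *Rrm2* cluster and 0.265 (0.173 to 0.404) in the *Snap91* cluster. The treated over untreated ratio of *Osr1* was likewise 1.67 in the *Rspo3* cluster and 3.77 in the *Rrm2* cluster. In the *Rspo3* cluster the median gene of *Enl*-T1 over *Enl*-WT lay at -0.38 on the log2 scale. After median-of-ratios scaling *Osr1* was there at -0.05, *Eya1* at -0.04, *Sall1* at -0.02, *Uncx* at 0.03 and *Meox1* at 0.36. *Six2* was at -0.56, *Cited1* at -1.52 and *Crym* at -1.55. In the *Rrm2* cluster *Osr1* was at -1.43 after this scaling.

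**Figure D3:**
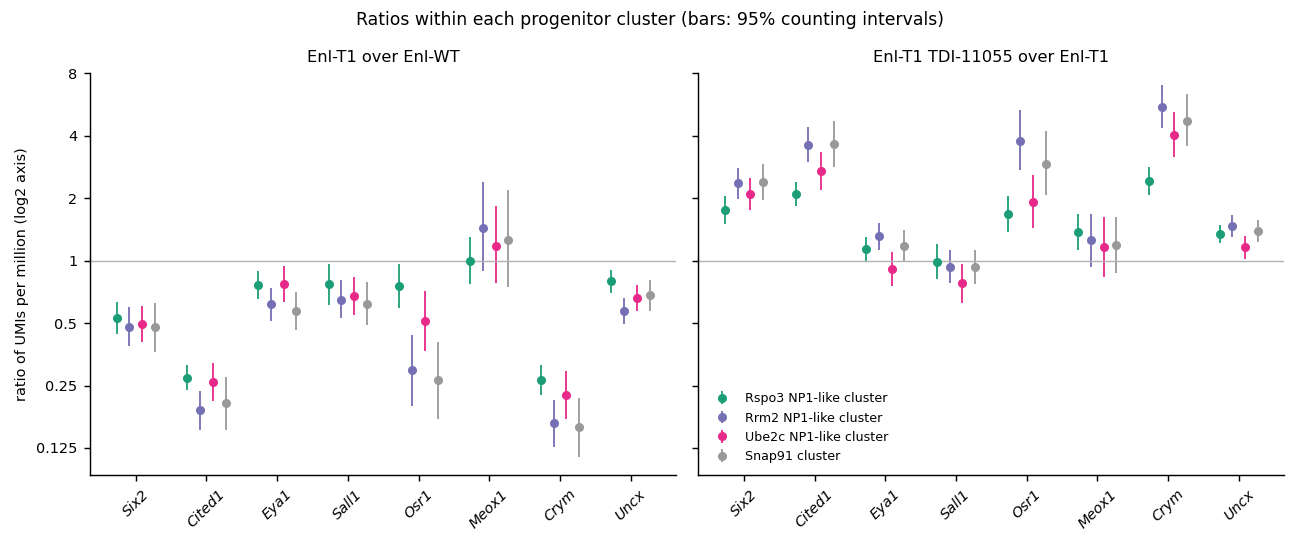
Ratio of CPM (y axis, log2 scale) for each member (x axis) within the 3 NP1-like clusters and the *Snap91* cluster, for *Enl*-T1 over *Enl*-WT (left) and treated over untreated *Enl*-T1 (right), which share the *Enl*-T1 library; bars are 95% counting intervals. *Six2*, *Cited1* and *Crym* lie under 1 on the left and above 1 on the right in all 4 clusters, while *Osr1* spreads widely between them.

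*Cited1* is X-linked, and the sex mix of NP1-like cells differed between the libraries. Cells were scored as female from *Xist* without Y-linked UMIs (26.1%, 70.1% and 29.9% of cells) and as male from the reverse (45%, 18.4% and 38.7%). In cells scored as female the *Cited1* ratio of *Enl*-T1 over *Enl*-WT was 0.255 (0.221 to 0.293), and in cells scored as male it was 0.0905 (0.0637 to 0.125). *Crym*, which is autosomal, gave 0.249 (0.209 to 0.298) and 0.112 (0.0776 to 0.156). *Six2* gave 0.421 and 0.470, with overlapping intervals. The lower *Cited1* and *Crym* in *Enl*-T1 cells of male type (29.5 and 28.0 CPM) than of female type (89.2 and 56.2 CPM) came from 99 and 378 cells of pooled embryos, so sex and embryo cannot be told apart. The female and male levels of *Cited1* were 350.3 and 326 CPM in *Enl*-WT and 236 and 225 CPM in the treated library.

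Because depth per cell differed between the libraries, each cell was thinned at random to 2000 UMIs before shares of cells were counted, and the 9 shallower NP1-like cells were left out (7, 1 and 1). *Six2* UMIs were then seen in 28.2%, 13.2% and 27.1% of NP1-like cells. *Cited1* was seen in 39.2%, 11.5% and 26.6%, and *Crym* in 36.1%, 7.99% and 28.6%. *Eya1* was seen in 35.3%, 24.9% and 20.5%, *Uncx* in 42.3%, 32.2% and 33.7%, *Sall1* in 20.4%, 15.4% and 13.4%, and *Osr1* in 13.3%, 5.02% and 15.3%. The background in endothelial-like cells, thinned in the same way, was at most 0.26% for *Six2*, 2.61% for *Cited1*, 1.04% for *Crym* and 2.08% for *Uncx*. *Meox1* was seen in 8.79%, 7.06% and 10.2% of NP1-like cells, in 2.60%, 3.11% and 6.09% of endothelial-like cells, whose CPM for it is given above, and in 0.241%, 0.190% and 0.1% of ureteric epithelium-like cells. Median depth before thinning was 5200, 12521 and 19216 UMIs in NP1-like cells and 5685, 10456 and 14222 UMIs in endothelial-like cells. Without thinning, *Six2* was seen in 55.6%, 55.3% and 80.1% of NP1-like cells.

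*Six2* and *Cited1* UMIs were found in the same NP1-like cell in 87 of 671 cells of *Enl*-WT (13.0%), 15 of 538 of *Enl*-T1 (2.79%, exact Clopper-Pearson interval 1.57 to 4.56) and 55 of 531 treated cells (10.4%, 7.90 to 13.3). The *Enl*-T1 interval lay below both others, which overlapped. If both genes were seen independently of each other the shares would be 11%, 1.52% and 7.20%, so the observed share was above the product of the single shares in each library. The margin was small in *Enl*-WT, and in *Enl*-T1, with 15 such cells, the product lay just under the lower limit of 1.57%. None of the 384, 257 and 115 thinned endothelial-like cells held both, which allows shares of up to 0.956%, 1.43% and 3.16% by the exact interval. Over the 28 pairs of members, the median share of NP1-like cells with both was 6.93%, 1.95% and 4.52% against products of 6.48%, 1.56% and 4.09%. The share was above the product in 22, 22 and 24 of the 28 pairs, and the phi correlations between presence of both genes were weak, from -0.10 to 0.22. No set of other gene pairs was counted beside these, and the class pools clusters that differ in member levels. Whether the counts of pairs are particular to the members was therefore not tested.

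**Figure D4:**
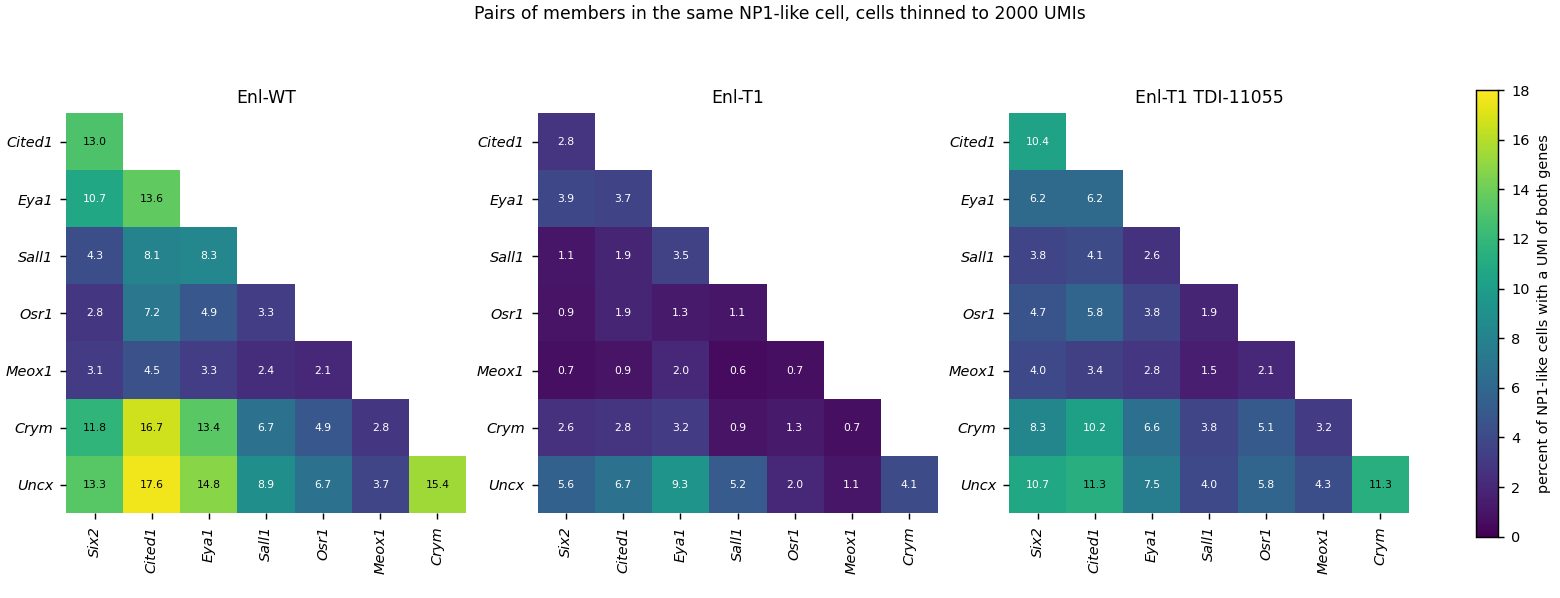
Percent of NP1-like cells, each thinned to 2000 UMIs, with a UMI of both genes of a pair (rows and columns are the 8 members, color is the percent, printed in each square) in the 3 libraries. The pair *Cited1* and *Uncx* is the most frequent in *Enl*-WT (17.6%), *Eya1* and *Uncx* in *Enl*-T1 (9.29%), and pairs with *Uncx* again lead in treated *Enl*-T1 (11.3% with *Cited1* and with *Crym*).

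The mean number of the 8 members seen in a thinned NP1-like cell was 2.24, 1.17 and 1.75 in the 3 libraries. At least 3 members were seen in 40.5% (36.8 to 44.4), 12.6% (9.95 to 15.7) and 27.9% (24.1 to 31.9) of the cells, and the 3 intervals did not overlap. None of the 8 was seen in 8.79%, 32.3% and 18.5% of the cells. The *Snap91* cluster gave 25.5%, 5.24% and 16.8% with at least 3 members. NP2/renal vesicle-like cells gave 4.69%, 2.0% and 0.541%, and endothelial-like cells 0.521% in *Enl*-WT and 0 in the other libraries.

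**Figure D5:**
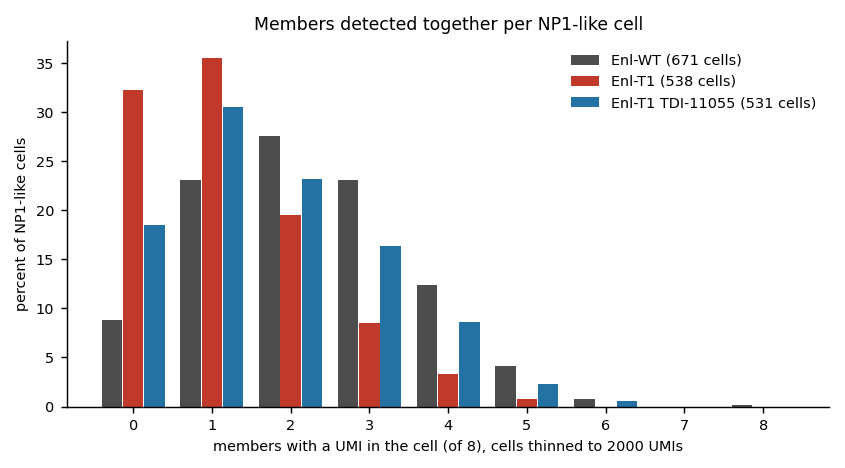
Percent of NP1-like cells (y axis) by the number of the 8 members with a UMI in the cell (x axis), each cell thinned to 2000 UMIs, for *Enl*-WT (671 cells), *Enl*-T1 (538) and treated *Enl*-T1 (531). Cells with 0 members make up 32.3% of *Enl*-T1 against 8.79% of *Enl*-WT, and the treated library lies between them at 18.5%.

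*Wnt4*, the first gene of commitment, was seen in 14.9%, 33.8% and 21.5% of thinned NP1-like cells (2.86%, 8.17% and 0.870% of endothelial-like cells). The share was also highest in *Enl*-T1 in ureteric epithelium-like cells (22.8%, 35.8% and 18.5%) and in the *Snap91* cluster (26.1%, 43.5% and 28.8%). The higher *Wnt4* share in *Enl*-T1 was therefore not particular to NP1-like cells. *Six2* with *Wnt4* was seen in 2.53%, 3.16% and 2.26% of NP1-like cells, below the products of 4.2%, 4.46% and 5.82%. *Cited1* with *Wnt4* was seen in 1.64%, 2.42% and 1.32%, against products of 5.84%, 3.90% and 5.70%.

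Other genes were read from lists grouped by function, which share the background percentages given above. Of 15 paralogs of the members, 8 reached 10 CPM in NP1-like cells, 3 of them were lower by 1.5 times or more in *Enl*-T1 than *Enl*-WT, none was higher, and their median was -0.17 against -0.33 over all genes. *Meox2* (0.475) and *Eya4* (0.433) were well past the threshold and *Eya3* (0.661) just past it, whereas *Cited2*, the relative of *Cited1*, was at 1.01. Under median-of-ratios scaling 2 were lower and 1 (*Six4*) was higher. *Meox2* was higher in the treated than in the untreated mutant (2.31), as was *Cited2* (1.63), and *Six4* was lower (0.489).

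Of 17 genes of the progenitor niche (signals, receptors and other factors of the cap mesenchyme), 15 reached 10 CPM, 7 were lower and 3 higher by 1.5 times in *Enl*-T1 than *Enl*-WT, and the median was -0.17. The lower ones were *Itga8* (0.228), the integrin subunit of the cap mesenchyme, the axon guidance receptor gene *Robo2* (0.342), *Gdnf* (0.390), the ligand that draws the ureteric bud, *Fgfr1* (0.524), *Bmp7* (0.561), *Ctnnb1* (0.565) and *Wt1* (0.661). The higher ones were the posterior *Hox* genes *Hoxc11* (6.5), *Hoxa11* (1.67) and *Hoxd11* (1.53). After median-of-ratios scaling 4 were lower and 3 higher. Treated over untreated mutant, *Gdnf* (2.35), *Fgf9* (1.83) and *Bmp7* (1.55) were higher, and *Hoxc11* (0.542), *Hoxd11* (0.600), *Wt1* (0.600) and *Pax2* (0.627) lower. *Gdnf* and *Itga8* were also among the markers that named the class.

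Of 8 commitment genes 6 reached 10 CPM, and 2 were higher by 1.5 times in *Enl*-T1 than *Enl*-WT: *Wnt4* (151 CPM in *Enl*-WT, 304 CPM in *Enl*-T1, a ratio of 2.02) and *Cdh6* (3.11), a cadherin of the renal vesicle. None of these 6 was lower, and their median was 0.32, beside -0.33 over all genes. *Lhx1*, which was under the filter, measured 8.43, 1.69 and 4.74 CPM, with a ratio of 0.200 (0.0940 to 0.397) in *Enl*-T1 over *Enl*-WT and 2.81 (1.46 to 5.84) in treated over untreated *Enl*-T1, the opposite of *Wnt4*. *Dkk1* was also under the filter, at 1.02, 0.562 and 0.861 CPM. In the treated over untreated comparison *Cdh6* (0.164), *Jag1* (0.408) and *Wnt4* (0.471) were lower and *Fgf8* (1.93) was higher. *Wnt4* and *Cdh6* were also naming markers of the next classes.

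The genes whose levels were most like a member's were sought over the 38 sums of a class in a library with at least 50 cells, by Pearson's r of log2(CPM + 10), among 8975 genes with at least 10 CPM in the mean. These sums share libraries and classes, and many of the genes define the classes, so r is a description. *Six2* was most like the member *Eya1* (r = 0.92), then *Eno3* (0.91), *Cited1* (0.88), *Spock2* (0.87) and *Rspo1* (0.84), followed among other genes by *Cacnb4* and *Shisa2* (both 0.82). *Cited1* was closest to *Six2* (0.88) and, among other genes, to *Shisa2* (0.84), *Skap1* (0.82), *Spock2* (0.81), *Rspo1* and *Zbtb12* (both 0.80). *Eya1* was like *Spock2* (0.91), *Cacnb4* (0.89), *Rspo1* (0.84), *Eno3* and *Rdh10* (both 0.83). *Crym* was like *Spock2* (0.77), *Snap91* and *Eno3* (both 0.73), *Rspo1* and *Meox2* (both 0.71).

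*Sall1* and *Uncx* were more like each other (0.86) than like *Six2*. *Sall1* was next to *Ncs1* (0.83), *Il17rd* (0.81), *St3gal6* (0.79), *Rragd* (0.78) and *Cecr2* (0.76), and *Uncx* to *Rspo1* and *Shisa2* (both 0.86), *Paics* (0.84), *2610318N02Rik* (0.83) and *Cenpv* (0.82). *Osr1* had lower values, led by *Crym* (0.73) and *Six2* (0.72), then *Cep41* (0.71), *Rspo3*, *Bmper* and *Snap91* (all 0.70) and *Sobp* (0.69). *Meox1* was closest to its paralog *Meox2* (0.73), then *Rspo3* (0.72), *Lrrn1* (0.69), *Smyd2* (0.68) and *Sulf2* (0.64). *Rspo1* was among the 5 nearest other genes of 5 members and *Spock2* of 4.

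Other quantities moved with the groups in NP1-like cells, and their part in the results was not tested. *Mllt1*, the gene that carries the mutation, measured 29.4, 22.9 and 19.6 CPM, and 3′ counts do not show the mutant allele. Summed CPM of 8 markers was taken for each other cell type. Values were: NP2 markers 418, 594 and 444, renal vesicle markers 241, 338 and 236, Foxd1 stroma markers 182, 155 and 122, medullary stroma markers 57.8, 96.1 and 40.1, ureteric epithelium markers 19.2, 34.3 and 36.2, erythroid markers 716, 546 and 174. Ureteric stroma markers summed to 159.7, 100.2 and 159.7 CPM, lowest in *Enl*-T1. Stroma markers summed to 144, 132.5 and 74.3 CPM, podocyte markers to 47.3, 35.8 and 27.6 CPM, and renin/mesangial markers to 34.5, 28.4 and 14.4 CPM. Neural crest markers summed to 7.92, 20.5 and 7.65 CPM, endothelial markers to 21.7, 22.6 and 23.7 CPM and immune markers to 1.02, 1.69 and 0.969 CPM. For 5 of the 8 Foxd1 stroma markers and 6 of the 8 stroma markers the *Enl*-T1 value exceeded the *Enl*-WT value, although both sums were lower. None of the NP2, stroma, Foxd1 stroma, ureteric epithelium or endothelial markers was at 0 in a library, 2, 1 and 3 ureteric stroma markers were at 0, 1 renal vesicle marker was at 0 in each, and of the immune list 5, 3 and 3 were at 0. The distal tubule list was 18.9, 3.23 and 3.55 CPM and the proximal tubule list 12, 5.90 and 6.68 CPM, with *Enl*-WT the highest in both.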

How the data were processed

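Per the labels and the study's methods, the authors aligned 3′ droplet reads to mm10 with Cell Ranger 6.1.2 and deposited UMI counts per gene and barcode for 3 libraries, with 37221435, 63336586 and 76619303 UMIs in *Enl*-WT, *Enl*-T1 and treated *Enl*-T1. Here barcodes with 1000 to 6000 genes and at most 10% mitochondrial UMIs were kept (72.8%, 63.0% and 42.7% of barcodes), and 55, 309 and 577 barcodes lay above the upper gene limit. Cells were clustered with Seurat 5.3.0 in R 4.3.3 without the members, their paralogs and *Hox* genes, and nephron and stromal cells were clustered again. A cluster was named from fixed markers, or left unnamed where another lineage's marker led it. Doublets were left in; removing those marked by Scrublet was an alternative (126, 41 and, where its threshold marked 0.0726% and the 61 highest scores were used instead, 61 cells). Raw counts were summed per class and library and scaled to CPM, with exact Poisson intervals and exact intervals of ratios from the split of counts (95%, counting error only). A gene was compared where the mean of both sums reached 10 CPM with UMIs in both, and called past 1.5 times. With 1 library a group no test was run. Cells were thinned at random to 2000 UMIs for shares. Scripts were tested on simulated data and used Python 3.11.15, numpy 2.4.6, scipy 1.17.1 and pandas 2.3.3. Named genes were the 8 members, the 5 other genes most like each, and list genes past 1.5 times. The members and the lists were chosen with earlier results of these data known.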

Additional observations from a re-analysis of the deposited data

Results flagged for a closer look

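Only classes in which the mean of both sums reached 10 CPM were searched here. Among these, in 4 cases a member's CPM ratio lay on opposite sides of 1 in NP1-like cells and in another class, with both intervals off 1. Cases under this limit were left out, such as *Osr1* in *Enl*-T1 over *Enl*-WT in Foxd1 stroma-like cells (4.13, 1.64 to 13.3). The same count was not made over all genes. None of these differences was tested, since each group was 1 library. *Crym* in *Enl*-T1 over *Enl*-WT had a ratio of 4.38 in medullary stroma-like cells, from 11 *Enl*-WT UMIs, against 0.201 in NP1-like cells. *Osr1* had a ratio of 2.48 in ureteric stroma-like cells, from 5 *Enl*-WT UMIs, against 0.496 in NP1-like cells. In treated *Enl*-T1 over *Enl*-WT, *Sall1* had a ratio of 1.35 in proximal tubule-like cells against 0.629 in NP1-like cells. *Uncx* had a ratio of 3.9 in proximal tubule-like cells against 0.917 in NP1-like cells, and measured 26.4 CPM in 271 *Enl*-WT and 103 CPM in 75 treated cells. The NP1-like side of this *Uncx* case depended on the scaling. Its log2 ratio there was -0.12 in CPM and 0.19 after median-of-ratios scaling, so the opposite directions hold in CPM only.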

How the results depend on the processing

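No paired analysis was possible because each group held 1 library. The median log2 ratio of the members in *Enl*-T1 over *Enl*-WT was -0.81, and became -0.48 after median-of-ratios scaling, -0.58 without mitochondrial, ribosomal and haemoglobin genes in the total, -0.99 with 1500 to 5000 genes and at most 5% mitochondrial UMIs, and -0.58 with the *Enl*-WT cluster shares, an alternative chosen after seeing the data. In treated over untreated *Enl*-T1 it was 0.83, and 1.15 in cells scored as male. In treated *Enl*-T1 over *Enl*-WT it was -0.19, and became 0.13, -0.02 without those genes, -0.05 with the members in the clustering, and -0.42 as a mean over cells, also chosen after seeing the data. The share with *Six2* and *Cited1* in the 3 libraries was 40.0%, 25.4% and 60.3% without thinning, 5.01%, 0.371% and 4.14% at 1000 UMIs and 31.4%, 7.65% and 25.5% at 4000 UMIs, and 1.01% in *Enl*-T1 cells scored as male. Without thinning the treated library was above *Enl*-WT, the reverse of their order at 2000 UMIs, where their intervals overlapped. The share with at least 3 members was 81.9%, 76.1% and 82.3% without thinning, 14.2%, 4.08% and 9.4% at 1000 UMIs and 73.5%, 34.9% and 62.2% at 4000 UMIs. It was 36.6% in *Enl*-WT and 23.4% in treated cells under the stricter filter, 44.6% and 33.3% in cells scored as female, and 35.2% in treated cells with the members in the clustering. In the *Rrm2* cluster alone, 11 of 24 combinations were highest in progenitors, against 20. Between 4 and 6 members were lower in *Enl*-T1 and between 4 and 6 higher with treatment over the alternatives, which included leaving out doublets and, chosen after seeing the data, adding the *Snap91* cluster. The share of all genes past 1.5 times was counted in CPM and after median-of-ratios scaling only. It was 31.8% and 13.5% for lower in *Enl*-T1, and 5.58% and 5.26% for higher with treatment. Under the other alternatives the member counts therefore have no share beside them. The cause of the shifts between alternatives was not tested.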
